A study of Homo sapiens with 12 samples.

Results

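Solute carriers (SLC proteins) are membrane transporters that move amino acids, sugars, nucleosides, ions, metals and vitamins across cell membranes. The genes described here are the protein-coding genes whose Entrez identifier maps to a symbol made of SLC and a digit. Of the 5759 genes in the authors' deposited table, 91 met this rule, in 37 families. RefSeq names 386 such protein-coding genes, so 23.6% were listed, against 26.3% of all 20056 protein-coding genes, and the other 295 are not analysed here. Following their families, 18 of the 91 are SLC25 mitochondrial carriers, 50 belong to families placed at the plasma membrane, and 23 belong to families of intracellular or mixed location. The share listed was 37.5% of the 48 SLC25 genes, 20% of the 250 plasma-membrane genes and 26.1% of the 88 others. SLC2A4RG, a transcriptional regulator of a glucose transporter gene, and SLC4A1AP, which encodes kanadaptin, carry an SLC name without being transporters.

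RNA was sequenced from 12 samples of MOLT4, an established human line of T lymphoblasts from an acute lymphoblastic leukaemia, labelled wild type. There were 4 groups of 3 samples. A group had the vehicle DMSO for 6 h, groups with 0.1 µM of compound 955 were taken after 1 h and after 6 h, and the last had 1 µM of SNS-032 over 6 h. SNS-032 inhibits cyclin-dependent kinases, among them the kinase that releases paused RNA polymerase II, and 955 is a piperlongumine conjugate that carries SNS-032 as its warhead. The design asks how the conjugate and its warhead compare. DMSO was sampled at 6 h only, so 955 for 1 h against DMSO differs in treatment and in time in culture, and these cannot be told apart. The compounds were given at different doses, so a contrast between them is of compound and dose together. The labels do not say that replicates are separate cultures, so p-values measure the spread between these samples, which may be technical.

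Values come from a table of 3 comparisons with DMSO and not from single samples. A gene is called higher or lower when the false discovery rate (FDR) is under 0.05 and the log2 fold change is at least 1 in size. All 91 SLC genes met this in at least 1 comparison of the authors' deposited table, as did 5757 of all 5759 genes listed, so the list is already a selection of genes that differ and every count below is over that selection. Fewer cells and less RNA per cell cannot be told apart in such bulk samples. T-lymphoblast markers were listed for 8 of 19, among them CD1B, CD3G and RAG2, at average levels from 3.74 to 8.06 log2 CPM (counts scaled to the library's total). No myeloid or erythroid marker of 4 each was listed, and 2 of 4 fibroblast markers (COL1A1 and PDGFRB) were. The median log2 fold change of this pair in the authors' deposited table was 1.95 after 6 h of 955 and 2.19 after SNS-032. Their part in the SLC results was not tested.

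Most SLC25 carriers sit in the inner mitochondrial membrane and exchange nucleotides, phosphate, amino acids, carboxylates and cofactors between cytosol and matrix. Plasma-membrane SLC families set what a leukaemia cell takes up and releases, including glutamine, lactate, folate and nucleosides. The SLC35 family includes proteins that carry nucleotide sugars into the Golgi and endoplasmic reticulum for glycosylation.

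Promoter sequences are shown for 4 SLC25 genes, because these genes moved in opposite directions at 6 h and share 1 motif at a similar place. Each line gives the 150 bases before the transcription start in RefSeq (GRCh38.p14), 5′ to 3′ on the strand of the gene, and capitals mark the CCAAT box, written CCAAT or, on the other strand, ATTGG. SLC25A4 lies at chr4:185143116-185143265 on the plus strand, SLC25A3 at chr12:98593536-98593685 on the plus strand, SLC25A29 at chr14:100306445-100306594 on the minus strand and SLC25A36 at chr3:140941686-140941835 on the plus strand.
SLC25A4: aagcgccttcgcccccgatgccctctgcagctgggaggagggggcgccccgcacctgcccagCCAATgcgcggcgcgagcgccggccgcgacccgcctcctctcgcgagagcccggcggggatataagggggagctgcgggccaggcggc
SLC25A3: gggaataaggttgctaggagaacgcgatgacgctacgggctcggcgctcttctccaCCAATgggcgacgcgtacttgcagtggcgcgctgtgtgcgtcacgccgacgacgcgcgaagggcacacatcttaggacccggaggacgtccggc
SLC25A29: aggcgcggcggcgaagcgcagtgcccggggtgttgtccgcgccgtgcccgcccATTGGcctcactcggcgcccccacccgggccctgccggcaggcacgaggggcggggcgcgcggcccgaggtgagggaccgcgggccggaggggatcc
SLC25A36: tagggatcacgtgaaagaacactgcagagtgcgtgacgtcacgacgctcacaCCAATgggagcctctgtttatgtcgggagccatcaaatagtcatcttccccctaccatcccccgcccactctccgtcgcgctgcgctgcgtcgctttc
The box begins 88 bases before the start in SLC25A4, 94 in SLC25A3, 97 in SLC25A29 and 98 in SLC25A36. SLC25A4 and SLC25A3 were among the carriers that fell, whereas SLC25A29 and SLC25A36 rose on the authors' scaling and lay below 0 on the mitochondrial scaling described next.

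After 6 h of 955, 33 SLC genes were higher and 37 lower in the authors' deposited table, where 35.2% of all listed genes were higher and 50.1% lower. SNS-032 gave 41 higher and 43 lower, beside 37.8% and 52.5% of all listed genes. 955 for 1 h gave 0 higher and 6 lower, beside 0.729% and 7.71%. Without regard to size, 8 SLC genes had an FDR under 0.05 at 1 h, beside 16.6% of all listed genes. The median log2 fold change of the 91 genes in the authors' deposited table was −0.06 at 1 h, −0.62 after 6 h of 955 and −0.94 after SNS-032, against −0.05, −1.03 and −1.07 over all listed genes.

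Directions at 6 h depend on the scaling. The 13 mRNAs encoded by the mitochondrial genome, which a separate polymerase transcribes, had a median log2 fold change of 0.67 at 1 h, 2.07 after 6 h of 955 and 2.35 after SNS-032 in the authors' deposited table. Taking these medians off every gene leaves the median of all listed genes at −0.73, −3.10 and −3.41. On this mitochondrial scaling 22 SLC genes were lower at 1 h (26.3% of all listed genes), 1 was higher and 59 lower after 6 h of 955 (2.08% and 66.2%), and 1 was higher and 61 lower after SNS-032 (1.58% and 71.6%). Of the 33 SLC genes higher after 6 h of 955, 1 then stayed higher, 2 became lower and 30 had no call, and 10 of the 33 kept a positive value. Of the 41 higher after SNS-032, 1 stayed higher, 12 became lower and 28 had no call. The gene that stayed higher was SLC15A2 in both, while the 37 and 43 lower genes all stayed lower. Any rise given below is thus relative to the authors' library scaling.

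The SLC25 carriers had a median log2 fold change of −0.89 after 6 h of 955 and −1.23 after SNS-032 in the authors' deposited table, and −2.96 and −3.58 on the mitochondrial scaling. Of the 18 carriers, 4 were higher and 9 lower after 955, and 6 were higher and 10 lower after SNS-032. Over all listed genes, 35.2% were higher and 50.1% lower after 955, and 37.8% and 52.5% after SNS-032. The share of carriers called lower was thus near that of all listed genes. The plasma-membrane families had medians of 0.97 and 1.17, which became −1.10 and −1.18 on the mitochondrial scaling. Among their 50 genes 24 were higher and 16 lower after 955, and 27 and 19 after SNS-032. The intracellular or mixed families lay at −1.17 and −1.27, with 5 higher and 12 lower of 23 after 955, and 8 and 14 after SNS-032. On the mitochondrial scaling no SLC25 or intracellular gene stayed higher under either compound, and the medians of the intracellular or mixed families were −3.24 and −3.61.

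The contrast between the classes was not seen among genes of higher level. Of the SLC genes, 41 of 91 lay above the median level of the whole table, 4.15 log2 CPM. Among these, the 20 plasma-membrane genes had a median log2 fold change of −0.93 after 6 h of 955 and −0.90 after SNS-032 in the authors' deposited table, and the 10 SLC25 genes −0.69 and −1.15. The same medians for all listed genes of that level were −1.09 and −1.10. The plasma-membrane median thus changed sign with this filter on the authors' scaling too, with 8 genes higher and 9 lower under each compound. Moving families with known intracellular members out of the plasma-membrane class left 36 genes, with medians of 1.23 and 1.25 on the authors' scaling. Without SLC2A4RG and SLC4A1AP the medians of the plasma-membrane class stayed at 0.97 and 1.17, over 48 genes.

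**Figure D1:**
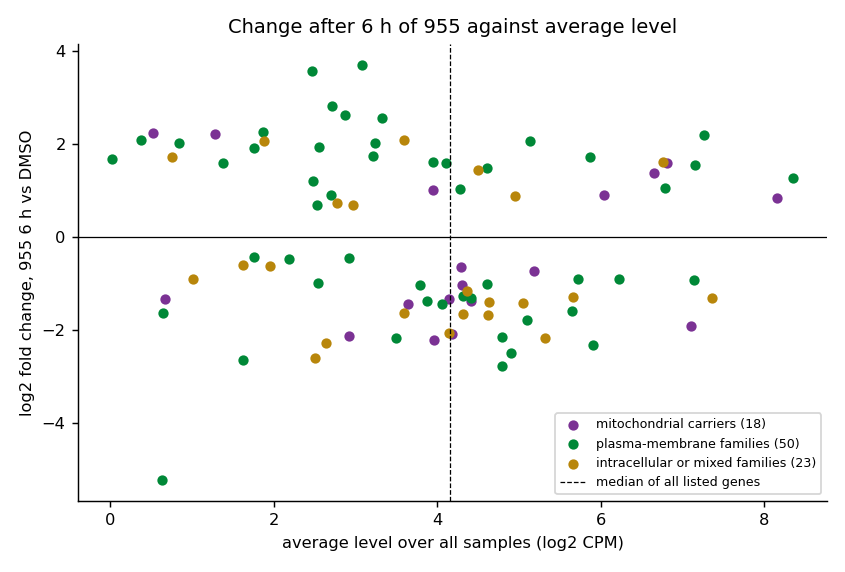
Each point is 1 of 91 listed SLC genes, with its average level over all samples (log2 CPM) on the horizontal axis and its log2 fold change after 6 h of 955 against DMSO on the vertical axis, coloured by class, and the dashed line marks the median level of all listed genes, 4.15. On the authors' scaling all 50 plasma-membrane genes have a median of 0.97 and the 20 to the right of the line a median of −0.93, and on the mitochondrial scaling every point would lie 2.07 lower.

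The SLC25 genes that fell include an adenine nucleotide carrier and the phosphate carrier. SLC25A4, which exchanges ATP for ADP in heart and muscle type mitochondria, had log2 fold changes of −0.07 at 1 h, −2.23 after 6 h of 955 and −2.46 after SNS-032 in the authors' deposited table, with implied standard errors of 0.40, 0.43 and 0.43. SLC25A3, the phosphate carrier that feeds ATP synthase, had 0.20, −1.93 and −1.97 in the authors' deposited table, with implied standard errors of 0.34, 0.35 and 0.36. Neither gene was called at 1 h, and both were lower under each compound at 6 h. The FDR in the authors' deposited table after 6 h of 955 was 0.00162 for SLC25A4 and 0.00231 for SLC25A3. SLC25A3 has pseudogenes of its own name in RefSeq (SLC25A3P1, SLC25A3P2 and SLC25A3P3), with which reads may be shared. SLC25A5 and SLC25A6, the other widely used adenine nucleotide carriers, are not among the listed genes and are not analysed here.

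SLC25A32, SLC25A33 and SLC25A17 fell as well. For SLC25A32, the folate and FAD carrier, the authors' deposited table gave log2 fold changes of −0.40 at 1 h, −2.10 after 6 h of 955 and −2.43 after SNS-032. SLC25A33, a pyrimidine nucleotide carrier, had −0.52, −1.46 and −1.47 in the authors' deposited table, and SLC25A17, a peroxisomal carrier of cofactors, had −0.08, −1.04 and −1.37. All 3 were lower under each compound at 6 h and none was called at 1 h. The folate carrier of the plasma membrane, SLC19A1, also fell at 6 h, with −0.48, −1.79 and −1.78 in the authors' deposited table.

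Carriers of fuel and amino acids made up the rest of the fall. SLC25A20, which brings acylcarnitines in for fatty acid oxidation, had log2 fold changes of 0.22 at 1 h, −1.38 after 6 h of 955 and −1.67 after SNS-032 in the authors' deposited table. SLC25A12, the aspartate-glutamate carrier of the malate-aspartate shuttle, had −0.32, −1.34 and −1.22 in the authors' deposited table. The oxodicarboxylate carrier SLC25A21 had −1.08, −1.34 and −1.24, with FDRs of 0.302, 0.0378 and 0.0561 in the authors' deposited table, so it was called after 6 h of 955 alone, and the difference between compounds for it was not called. SLC25A44, a carrier of branched-chain amino acids, had −0.64, −0.74 and −1.26 in the authors' deposited table and passed the size bound under SNS-032 alone. SLC25A25, a calcium-regulated ATP-Mg and phosphate carrier, is described with the 1 h genes.

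The SLC25 genes that rose on the authors' scaling include carriers of high level. SLC25A29, a carrier of basic amino acids, had log2 fold changes of 0.26 at 1 h, 1.59 after 6 h of 955 and 1.62 after SNS-032 in the authors' deposited table, which became −0.48 and −0.73 at 6 h on the mitochondrial scaling. SLC25A36, which carries pyrimidine nucleotides, had 0.26, 1.36 and 1.36 in the authors' deposited table, and −0.71 and −0.99 at 6 h on the mitochondrial scaling. SLC25A29 overlaps YY1 on the opposite strand, and whether reads were counted by strand is not given in the sources used here. The mitochondrial iron importer SLC25A28 (mitoferrin 2) had −0.24, 0.90 and 1.10, and SLC25A39, which brings glutathione into the matrix, had 0.35, 0.84 and 1.01 in the authors' deposited table. Both had a rise past the size bound under SNS-032 and missed it after 6 h of 955, and both were lower on the mitochondrial scaling, at −1.24 for SLC25A28 and −1.33 for SLC25A39. SLC25A45 had 0.20, 0.99 and 1.05 in the authors' deposited table, with the same pattern of calls and −1.30 after SNS-032 on the mitochondrial scaling.

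A pair of low-level carriers, chosen for mention after their values were seen, had the largest SLC25 rises after 6 h of 955 on the authors' scaling. SLC25A34 had log2 fold changes of 2.20 after 6 h of 955 and 2.44 after SNS-032 in the authors' deposited table, or 0.13 and 0.09 on the mitochondrial scaling. SLC25A41, another ATP-Mg and phosphate carrier, had 2.24 and 1.31 in the authors' deposited table, with FDRs of 0.00385 and 0.0987, and 0.17 and −1.04 on the mitochondrial scaling. SLC25A41 overlaps SLC25A23 in RefSeq, and whether they share a strand was not determined here.

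**Figure D2:**
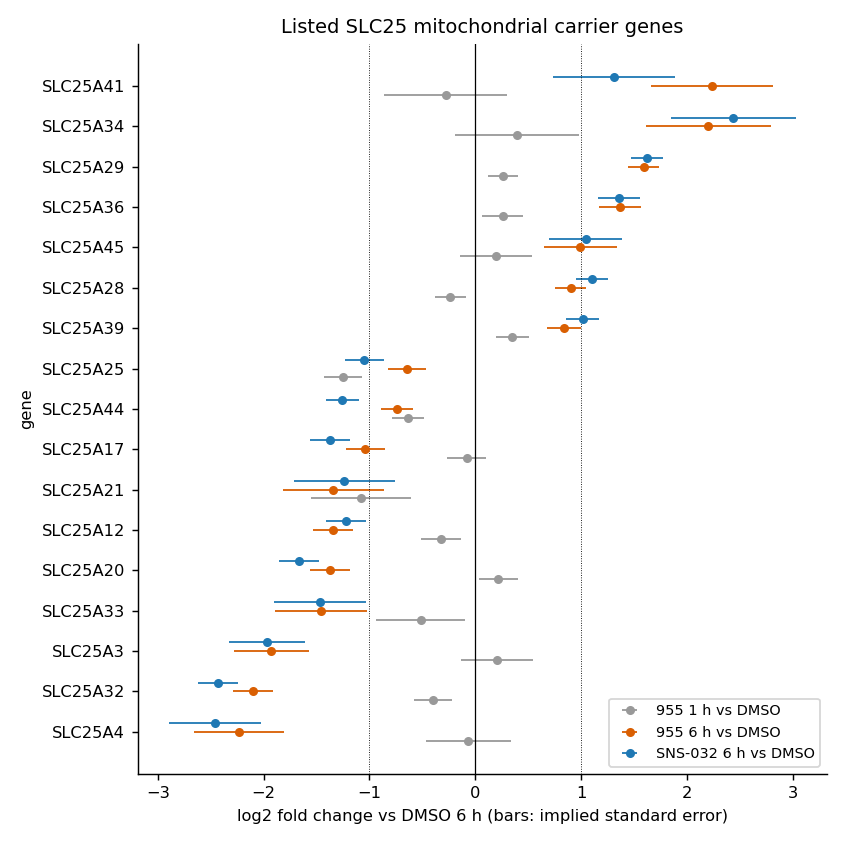
Each row is 1 of 17 listed SLC25 genes and each point its log2 fold change against DMSO 6 h (horizontal axis, authors' scaling), in grey for 955 at 1 h, orange for 955 at 6 h and blue for SNS-032 at 6 h, with bars of 1 implied standard error and dotted lines at the bound of 1. At 6 h the 7 genes at the top lie above 0 and the 10 below lie under it for both compounds, from −2.23 (SLC25A4) to 2.24 (SLC25A41) after 955, and on the mitochondrial scaling only 2 stay above 0 after 955 and 1 after SNS-032.

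SLC25 precursors enter through the TOM complex, the small TIM chaperones and the TIM22 translocase, of which 10 of 16 genes were listed. After 6 h of 955, 6 of them were lower and 1 higher in the authors' deposited table, and 9 and 1 after SNS-032. Over all listed genes, 50.1% were lower and 35.2% higher after 955, and 52.5% and 37.8% after SNS-032. TOMM70, the receptor for carrier precursors, had log2 fold changes of −2.75 and −2.46 in the authors' deposited table, and TIMM9, a chaperone that escorts them, had −2.91 and −2.64. TOMM7, a small subunit of the TOM complex, was the gene that rose, by 1.33 and 1.53 in the authors' deposited table, or −0.74 and −0.81 on the mitochondrial scaling. The list's median log2 fold change was −1.47 and −1.42 in the authors' deposited table, beside −1.03 and −1.07 over all listed genes. Of 26 other mitochondrial transporter genes 6 were listed, with 3 higher and 2 lower under each compound on the authors' scaling and 0 higher on the mitochondrial scaling. VDAC2, a channel of the outer membrane, fell by 1.14 and 1.17 on the log2 scale in the authors' deposited table, while the sideroflexin SFXN3 rose by 1.56 and 1.47, or −0.51 and −0.87 on the mitochondrial scaling.

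Genes of plasma-membrane families grouped by name as amino acid transporters went both ways. Not every gene has that role, as SLC6A8 carries creatine. Of 11 listed genes, 6 were higher and 3 lower after 6 h of 955, and 6 higher and 4 lower after SNS-032, in the authors' deposited table. None of the 6 stayed higher on the mitochondrial scaling under either compound. Their median log2 fold change was 1.03 and 1.17 in the authors' deposited table, and −1.04 and −1.18 on the mitochondrial scaling. SLC1A5, the neutral amino acid exchanger that brings in glutamine, had −0.75 at 1 h, −1.60 after 6 h of 955 and −1.93 after SNS-032 in the authors' deposited table. SLC3A2, the heavy chain that carries several light-chain transporters to the surface, had −0.69, −0.91 and −1.16, with FDRs of 0.427, 0.0618 and 0.0193 in the authors' deposited table, so it was called under SNS-032 alone. SLC38A2, a sodium-coupled neutral amino acid transporter, is described with the 1 h genes.

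Against these, SLC7A11, the cystine importer that supplies glutathione synthesis, had log2 fold changes of −0.14, 1.73 and 1.48 in the authors' deposited table, and −0.34 and −0.86 at 6 h on the mitochondrial scaling. SLC43A1, a facilitative carrier of large neutral amino acids, had 0.12, 2.61 and 2.86 in the authors' deposited table, and 0.54 and 0.52 at 6 h on the mitochondrial scaling. SLC6A8, the creatine transporter, had −0.07, 3.70 and 3.80 in the authors' deposited table, the largest rise of the 91 genes under each compound. The implied standard errors for SLC6A8 were 0.88, 0.90 and 0.90, so the FDR in the authors' deposited table was 0.0127 for 955 at 6 h. SLC6A8 has a near-identical pseudogene copy in the genome, and reads may be split between them. All 3 listed SLC6 genes (SLC6A6, SLC6A8 and SLC6A9) rose under each compound on the authors' scaling, and on the mitochondrial scaling SLC6A8 alone stayed above 0. Of 9 amino acid supply genes known from the integrated stress response 5 were listed, and SLC7A11 and SLC6A9 were the 2 that were higher on the authors' scaling, with none higher on the mitochondrial scaling.

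Families of ion transporters were the largest plasma-membrane group. Grouping by family name puts SLC4A1AP in it, which is not a transporter and was lower under each compound. Of 14 listed genes, 8 were higher and 4 lower in the authors' deposited table after 6 h of 955, beside 35.2% and 50.1% of all listed genes. After SNS-032, 9 were higher and 2 lower, beside 37.8% and 52.5%. None of these stayed higher on the mitochondrial scaling, where the median moved from 1.23 to −0.84 after 955 and from 1.25 to −1.09 after SNS-032. The anion exchanger SLC4A2, which trades bicarbonate for chloride, had log2 fold changes of 0.30, 1.26 and 1.33 in the authors' deposited table, and −0.82 and −1.01 at 6 h on the mitochondrial scaling. SLC12A4, a potassium-chloride cotransporter, had 0.10, 2.06 and 2.16 in the authors' deposited table, and −0.01 and −0.18 at 6 h on the mitochondrial scaling. SLC26A6, another anion exchanger, had 0.20, 1.70 and 1.96 in the authors' deposited table, and −0.37 and −0.39 at 6 h on the mitochondrial scaling. SLC12A4 overlaps LCAT. SLC12A2, the sodium-potassium-chloride cotransporter that loads cells with chloride, went the other way, at 0.16, −1.01 and −0.85 in the authors' deposited table. The phosphate importer SLC20A2 had −0.48, −1.27 and −0.85 in the authors' deposited table. SLC12A2 and SLC20A2 were called after 6 h of 955 and missed the size bound after SNS-032, and neither differed between the compounds past an adjusted p of 0.05.

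Among lipid and choline transporters, 3 of 5 were higher and 1 lower after 6 h of 955, and 4 and 1 after SNS-032. Over all listed genes the shares were 35.2% and 50.1% after 955, and 37.8% and 52.5% after SNS-032. None of these transporters stayed higher on the mitochondrial scaling. SLC44A2, a choline transporter-like protein, had log2 fold changes of 0.21, 1.55 and 1.47 in the authors' deposited table, and −0.52 and −0.87 at 6 h on the mitochondrial scaling. SLC27A1, a fatty acid transport protein, had 0.16, 1.44 and 1.52 in the authors' deposited table, and −0.63 and −0.82 at 6 h on the mitochondrial scaling. Its relative SLC27A4 fell, with −0.05, −2.18 and −2.26 in the authors' deposited table.

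Monocarboxylate, nucleoside and vitamin transporters held some of the deepest falls. SLC16A1, which moves lactate and pyruvate together with protons, had log2 fold changes of −0.22 at 1 h, −2.32 after 6 h of 955 and −2.56 after SNS-032 in the authors' deposited table, with implied standard errors of 0.22, 0.23 and 0.23. EMB, a chaperone subunit of such transporters, had −0.08, −0.83 and −1.01 in the authors' deposited table. SLC16A14, an orphan member of the same family, rose, with −0.76, 1.91 and 1.83 in the authors' deposited table, and −0.16 and −0.52 at 6 h on the mitochondrial scaling. In all, 2 of 6 SLC16 genes were higher and 1 lower after 6 h of 955, and 4 and 2 after SNS-032, and none stayed higher on the mitochondrial scaling. All listed genes had shares of 35.2% higher and 50.1% lower after 955, and 37.8% and 52.5% after SNS-032, on the authors' scaling. SLC29A1, the equilibrative nucleoside transporter through which many nucleoside drugs enter cells, had 0.12, −0.94 and −1.05 in the authors' deposited table, and passed the size bound under SNS-032 alone. SLC29A4 had 0.05, 1.47 and 1.47 in the authors' deposited table, and −0.60 and −0.88 at 6 h on the mitochondrial scaling. SLC52A2, a riboflavin transporter, had −0.36, −2.51 and −2.49 in the authors' deposited table. Of the 4 listed genes in families grouped by name as vitamin transporters, 3 were lower and 1 higher under each compound, beside the same shares of all listed genes. Not every gene in such a group has its role. The higher gene was the vitamin C transporter SLC23A1, at 1.58 and 1.82 in the authors' deposited table or −0.50 and −0.53 on the mitochondrial scaling. Other genes overlap SLC23A1 (PAIP2) and SLC19A1 (COL18A1), as they do 52 of the 91 SLC genes in RefSeq.

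All 5 metal transporters lay below 0 at 6 h, and 3 were lower after 955 and 4 after SNS-032. Of all listed genes, 50.1% were lower after 6 h of 955 and 52.5% after SNS-032. The zinc importer SLC39A3 had log2 fold changes of −0.25, −2.77 and −3.06 in the authors' deposited table, with implied standard errors of 0.19, 0.20 and 0.21. SLC30A5 and SLC30A6, which form a pair that loads zinc into the secretory pathway, had −1.43 and −1.42 for 955 at 6 h in the authors' deposited table, and −1.44 and −1.50 for SNS-032. The median of the 5 metal transporters was −1.42 and −1.44 in the authors' deposited table.

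Organic ion and peptide transporters held the lowest value of the 91 genes and the rise that was kept on the mitochondrial scaling. SLC22A16, a carnitine and organic cation transporter, had log2 fold changes of −0.0043 at 1 h, −5.23 after 6 h of 955 and −5.25 after SNS-032 in the authors' deposited table. Its average level was 0.63 log2 CPM and its implied standard errors were 0.78, 1.04 and 1.06, so the size of this fall is imprecise. SLC15A2, a proton-coupled peptide importer chosen for mention after its values were seen, had 1.24, 3.56 and 3.60 in the authors' deposited table, and 1.48 and 1.25 at 6 h on the mitochondrial scaling. The FDR for SLC15A2 at 1 h was 0.0821 in the authors' deposited table, so it was not called there.

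**Figure D3:**
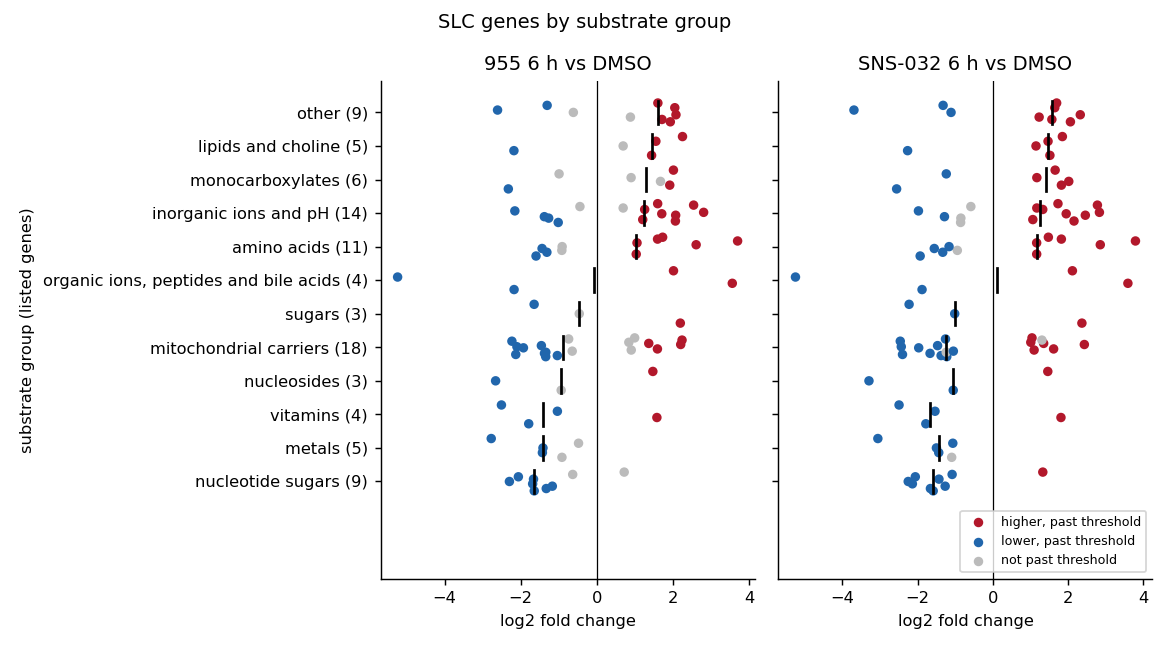
Each point is 1 listed SLC gene in its substrate group (vertical axis, number of genes in brackets), placed by its log2 fold change against DMSO (horizontal axis, authors' scaling) for 955 at 6 h on the left and SNS-032 at 6 h on the right, and black bars mark group medians. Groups follow family names, so not every gene has the role of its group. The nucleotide sugar group (SLC35) centres on −1.64 and −1.58 and the inorganic ion group on 1.23 and 1.25. These medians become −3.72, −3.93, −0.84 and −1.09 on the mitochondrial scaling.

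Genes of the SLC35 family, grouped by name as nucleotide sugar transporters, mostly fell. That role does not hold for every member, as SLC35B1 carries ATP. Of 9 listed genes, 0 were higher and 7 lower after 6 h of 955, and 1 was higher and 8 lower after SNS-032, in the authors' deposited table. SLC35A2, which brings UDP-galactose into the Golgi, had log2 fold changes of −0.25, −1.64 and −1.58 in the authors' deposited table. SLC35B1, which brings ATP into the endoplasmic reticulum, had −0.11, −1.69 and −2.14 in the authors' deposited table. SLC35A4 had 0.08, −1.33 and −1.66, and SLC35F2 had −0.35, −1.66 and −1.43, in the authors' deposited table. The exception, SLC35G2, had 0.72 and 1.33 at 6 h in the authors' deposited table and −1.35 and −1.01 on the mitochondrial scaling. The family's median was −1.64 and −1.58 in the authors' deposited table, beside −1.03 and −1.07 over all listed genes. On the mitochondrial scaling all 9 were lower under each compound, beside 66.2% and 71.6% of all listed genes.

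Other intracellular members went both ways. SLC37A4, the glucose 6-phosphate transporter of the endoplasmic reticulum, had log2 fold changes of 0.13, 0.88 and 1.24 in the authors' deposited table, and −1.19 and −1.11 at 6 h on the mitochondrial scaling. SLC37A2 had −0.85, 1.71 and 1.57 in the authors' deposited table, and −0.36 and −0.77 at 6 h on the mitochondrial scaling. SLC75A1, named MFSD10 before, had 0.19, 1.60 and 1.70 in the authors' deposited table, and −0.47 and −0.64 at 6 h on the mitochondrial scaling. The non-transporters were called too: SLC2A4RG had 0.58, 2.19 and 2.37, and SLC4A1AP had −0.04, −2.15 and −1.98, in the authors' deposited table. SLC2A4RG lay at 0.12 and 0.03 at 6 h on the mitochondrial scaling.

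The ATP-driven ABC transporters, the other large transporter superfamily, were listed for 12 of 45 genes. Of these 8 were higher and 4 lower under each compound in the authors' deposited table, and on the mitochondrial scaling 0 were higher. The shares over all listed genes on the authors' scaling were 35.2% higher and 50.1% lower after 955, and 37.8% and 52.5% after SNS-032. ABCA2, a lipid transporter, had log2 fold changes of 2.91 after 6 h of 955 and 3.08 after SNS-032 in the authors' deposited table, or 0.84 and 0.73 on the mitochondrial scaling. ABCF2, which has no membrane-spanning part, had −2.73 and −2.72 in the authors' deposited table. Of 9 partner subunit and sodium pump genes 3 were listed, and 1 was lower after 6 h of 955 and 3 after SNS-032.

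After 1 h of 955 the 6 SLC genes called were all lower. SLC30A1 (chr1:211571568-211579161), the zinc exporter of the plasma membrane, had a log2 fold change of −1.78 in the authors' deposited table, with an implied standard error of 0.49 and an FDR of 0.0359. SLC38A2 (chr12:46358188-46372773) had −1.77 in the authors' deposited table, with an implied standard error of 0.19 and an FDR of 2.09e-05. These had the lowest values of the 6, and the error of SLC38A2 was the smaller one. SLC9A3 (chr5:470456-524449), a sodium-proton exchanger, had −1.46 in the authors' deposited table with an FDR of 0.0254. SLC35C1 (chr11:45804079-45813016), the GDP-fucose transporter of the Golgi, had −1.41 in the authors' deposited table with an FDR of 0.0118. SLC16A6 (chr17:68267026-68291479), a ketone body transporter, had −1.35 in the authors' deposited table with an FDR of 0.00457, and SLC25A25 (chr9:128068232-128109245) had −1.25 with an FDR of 0.000129. Coordinates are gene spans in RefSeq on GRCh38.p14. All 6 were lower on the mitochondrial scaling as well. SLC9A3, SLC35C1 and SLC16A6 are named because the count is small, after their values were seen.

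By 6 h these genes had gone different ways. SLC35C1 had log2 fold changes of −2.30 after 6 h of 955 and −2.25 after SNS-032 in the authors' deposited table, and its change from 1 h to 6 h of 955 was −0.89 (Benjamini-Hochberg adjusted p = 0.018). SLC38A2 stood at −0.92 and −0.94 in the authors' deposited table, a difference of 0.85 from 1 h (adjusted p = 0.000476). SLC25A25 stood at −0.65 and −1.05 in the authors' deposited table, a difference of 0.60 from 1 h (adjusted p = 0.00406), and SLC9A3 at −0.44 and −0.58, a difference of 1.02 (adjusted p = 0.0164). For SLC30A1 and SLC16A6 the differences of 0.86 and 0.35 had adjusted p of 0.0998 and 0.237. On the mitochondrial scaling the differences of SLC38A2, SLC25A25 and SLC9A3 turned to −0.55, −0.79 and −0.38, so the partial return of these genes towards DMSO holds on the authors' scaling only.

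**Figure D4:**
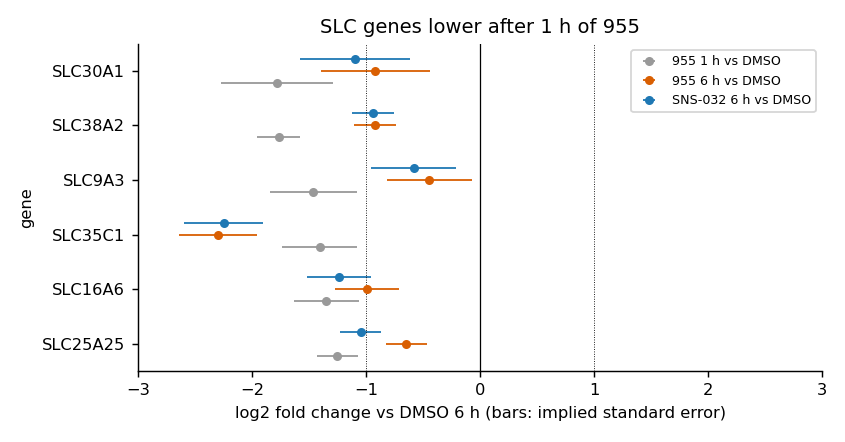
Each row is 1 of the 6 SLC genes lower after 1 h of 955, and each point its log2 fold change against DMSO 6 h (horizontal axis, authors' scaling), in grey for 955 at 1 h, orange for 955 at 6 h and blue for SNS-032 at 6 h, with bars of 1 implied standard error. SLC35C1 moved further down, from −1.41 at 1 h to −2.30 at 6 h, whereas SLC38A2 moved from −1.77 to −0.92, a move that on the mitochondrial scaling was −0.55.

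Between 1 h and 6 h of 955, 31 SLC genes rose and 28 fell past the threshold (Benjamini-Hochberg adjusted p under 0.05 over all listed genes and a difference of at least 1), beside 27% and 35.6% of all listed genes. On the mitochondrial scaling 4 were higher (3.7% of all listed genes), namely SLC16A14, SLC37A2, SLC43A1 and SLC6A8, and 46 lower (58.1%). Of the SLC25 carriers 5 rose and 6 fell, with a median difference of −0.18, and of the plasma-membrane genes 21 rose and 12 fell, with a median of 0.75. These medians were −1.58 and −0.64 on the mitochondrial scaling. SLC25A4 fell by 2.16 and SLC25A3 by 2.13 on the log2 scale between the times (adjusted p = 0.000514 and 0.000342), while neither was called at 1 h. SLC6A8 rose by 3.76 between the times, and SLC16A14 by 2.67, SLC37A2 by 2.56 and SLC43A1 by 2.49.

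At their different doses, no SLC gene differed past the threshold between 955 and SNS-032 at 6 h, beside 0.851% of all listed genes higher with 955 and 0.26% higher with SNS-032. Of the 91 genes compared, 7 had an unadjusted p under 0.05 in the contrast computed from the implied standard errors, beside 850 of all 5759 listed genes, and 0 had an adjusted p under 0.05, beside 2.73% of all listed genes. The differences ran from −0.61 to 1.08 on the log2 scale, with a median half-width of the 95% interval of 0.55. For 58 genes the whole interval lay within 1 of 0, and for the others a difference of that size was not excluded by the spread between replicates. SLC25A44 had the smallest adjusted p (0.0751), with a difference of 0.52 (95% interval 0.20 to 0.83), SNS-032 giving the lower value. SLC61A1, named MFSD5 before and a molybdate transporter, had the largest difference, 1.08 (95% interval 0.14 to 2.02), and the authors' deposited table gave −2.61 with 955 and −3.69 with SNS-032.

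Gene structure was set beside the changes, using the longest protein-coding transcript of each gene in GENCODE release 29. SLC genes higher after 6 h of 955 had a median of 13 exons and those lower a median of 7, beside 11 and 7 for all protein-coding genes listed. The gap was wider in the plasma-membrane families (15 and 7) and was not seen in the SLC25 carriers (6 and 7). Across genes, Spearman's rho between exon number and the log2 fold change after 6 h of 955 was 0.40 for the 91 SLC genes, 0.48 for the 50 plasma-membrane genes, −0.18 for the 18 carriers and 0.25 for 5260 protein-coding genes listed. Genes are not independent replicates, and all share the same libraries. Transcript GC content had medians of 58.4% in the higher and 51.0% in the lower SLC genes after 6 h of 955, beside 55.7% and 47.7% for all protein-coding genes listed. Higher and lower are as called on the authors' scaling.

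**Figure D5:**
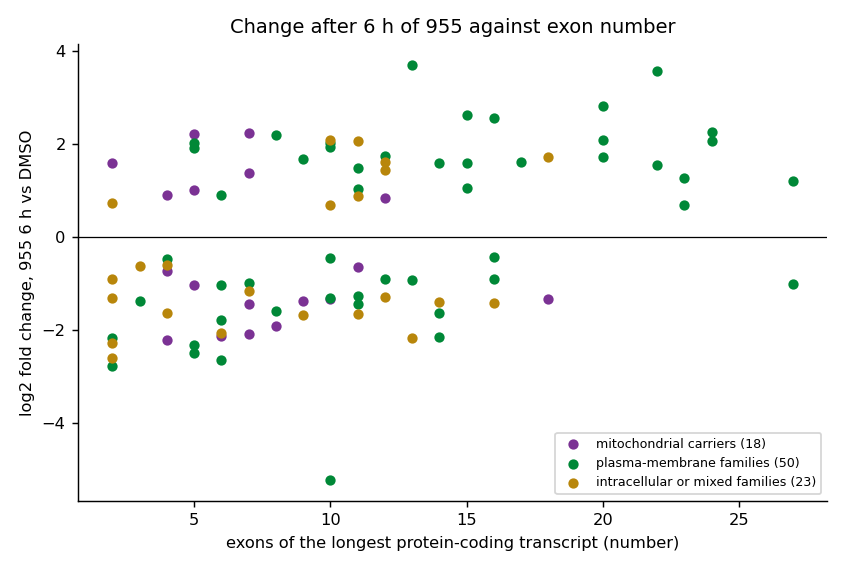
Each point is 1 of 91 SLC genes, with the exon number of its longest protein-coding transcript on the horizontal axis and its log2 fold change after 6 h of 955 against DMSO (authors' scaling) on the vertical axis, coloured by class. Plasma-membrane genes with many exons lie mostly above 0 (rho 0.48 over 50 genes), whereas the 18 SLC25 carriers show no such slope (rho −0.18), and a change of scaling would lower all points alike.

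Promoter motifs were searched on both strands in the RefSeq windows of 300 bases, from 250 before to 50 after the start, for the 76 SLC genes that matched the table of promoters. The letters CCAAT were found in 11 of 15 SLC25 promoters (73.3%), 12 of 40 plasma-membrane promoters (30%) and 8 of 21 others (38.1%). The share was 36.4% of 15843 protein-coding promoters and 47.5% of all 40 SLC25 promoters in RefSeq, listed or not. The box was in 3 of 3 carriers higher after 6 h of 955 and in 5 of 7 lower ones, too few to compare. The 4 printed promoters were chosen to hold the box and to differ in direction, so they cannot show whether its presence follows direction. The letters CCGGAAG, bound by ETS factors, were in 7 of 21 promoters of the intracellular or mixed families (33.3%), 3 of 15 SLC25 promoters and 1 of 40 plasma-membrane promoters (2.5%), against 14.2% of protein-coding promoters. TGACGTCA, the full cyclic AMP response element, was in 3 of 15 SLC25 promoters (20%) against 2.59% of protein-coding promoters. CACGTG, the E-box, was in 2 of 15 (13.3%) against 8.88%, GGGCGG, the GC box, in 12 of 15 (80%) against 58.5%, and TATAAA in 0 of 15 against 9.63%. Listed protein-coding genes had CCAAT in 37.9% of promoters, CCGGAAG in 20.9%, TGACGTCA in 3.4%, CACGTG in 10.2%, GGGCGG in 69% and TATAAA in 6.31%. All 40 SLC25 promoters in RefSeq had CCGGAAG in 20%, TGACGTCA in 7.5%, CACGTG in 17.5%, GGGCGG in 70% and TATAAA in 7.5%. These motifs can overlap, and a match is a description of letters and not of a bound site.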

How the data were processed

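RNA of 12 MOLT4 samples in 4 groups of 3 was sequenced from mRNA libraries, per the labels' protocols. The submitters' processing notes name hg38 and DESeq2 without their roles, and the aligner, counter, use of strand, annotation and filters are not given in the sources used here. What the authors deposited is a table of 3 comparisons with DMSO, each with a log fold change and an average log CPM (read as log2 values, since no gene had a largest change under 1.00), an F statistic, a p-value and an FDR, per the file headers. The F statistic deposited by the authors is a score with no fixed range. With no values for single samples, the depth is unknown and intervals that need it are left out. The test planned for values per sample was replaced by the authors' own test.

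An implied standard error was obtained by dividing the size of the log2 fold change by the root of F, and the degrees of freedom were solved from F and p (8.49 to 23.3 for SLC genes, under 10 for 7 of them). A contrast of treated groups used the difference of log2 fold changes over the root mean square of both implied standard errors, with Benjamini-Hochberg adjustment over all 5759 genes. This calculation was tested on simulated data in which each gene had the same spread in every group. Such data cannot show how it behaves where spreads differ between groups. On the mitochondrial scaling, the median of the 13 mitochondrial mRNAs was taken off each log2 fold change, and the call used the p that corresponded to an FDR of 0.05 in the same comparison. Gene identifiers were matched to RefSeq (5727 of 5759 named). Python 3.11.15, numpy 2.4.6, pandas 2.3.3, scipy 1.17.1 and matplotlib 3.10.9 were used.

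The members and gene lists were chosen with earlier results of these data known. The text names, per comparison with DMSO and class, up to 6 genes with the largest rises and 6 with the largest falls above the median level, up to 5 in each direction per contrast of treated groups, and 22 listed genes of a fixed list of 55 known roles. Other genes named, such as SLC25A45, SLC35G2, SLC23A1, SLC15A2 and SLC61A1, were chosen after their values were seen. Alternatives were other bounds, an FDR of 0.01, the mitochondrial scaling, a filter on level, other class limits, other standard errors and, chosen after seeing the data, leaving out SLC2A4RG and SLC4A1AP. Some genes that the counts include are not reported here.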

Additional observations from a re-analysis of the deposited data

Results flagged for a closer look

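The response to 955 differed between 1 h and 6 h for 59 of the 91 SLC genes, by a test of the difference itself (Benjamini-Hochberg adjusted p under 0.05 and a difference of at least 1 on the log2 scale). Both times share the DMSO samples taken at 6 h. Among the genes higher at 6 h than at 1 h, the differences were 3.76 for SLC6A8, 2.67 for SLC16A14, 2.56 for SLC37A2, 2.52 for SLC25A41 and 2.49 for SLC43A1. Among those lower at 6 h, they were −5.23 for SLC22A16, −2.52 for SLC39A3, −2.16 for SLC25A4, −2.15 for SLC52A2 and −2.13 for SLC25A3. Of the genes already lower at 1 h, SLC35C1 moved by a further −0.89, whereas SLC9A3, SLC38A2 and SLC25A25 moved by 1.02, 0.85 and 0.60, and the last 3 turned negative on the mitochondrial scaling. When the shared DMSO samples were left out of account in the standard error, the adjusted p was 0.00891 for SLC38A2, 0.0385 for SLC25A25, 0.0878 for SLC9A3 and 0.0928 for SLC35C1.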

How the results depend on the processing

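The number of SLC genes called moved with the size bound, the filter on level and the scaling. With a bound of 2 on the log2 scale it was 0 for 955 at 1 h, 29 for 955 at 6 h, 27 for SNS-032 and 16 between the times of 955. Among the 41 SLC genes above the median level it was 2, 33, 38 and 29. These are the same calls counted over fewer genes, with no new test. For 955 at 1 h it was 3 with an FDR under 0.01 and 22 on the mitochondrial scaling. The contrast of 955 with SNS-032 gave 0 under each alternative tried.

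On the mitochondrial scaling, which shifts every value down by construction, the medians at 1 h, after 6 h of 955 and after SNS-032 were −0.83, −2.96 and −3.58 for SLC25 and −0.65, −1.10 and −1.18 for the plasma-membrane families. Among genes above the median level, on the authors' scaling, the medians were 0.061 and −0.69 for SLC25 at 1 h and after 6 h of 955. For the plasma-membrane families of that level they were −0.053, −0.93 and −0.90 at 1 h, after 6 h of 955 and after SNS-032. The cause was not tested.

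Of the 101 values tested for named genes, 10 were lost with an FDR under 0.01, 61 with a bound of 2 and 8 on the mitochondrial scaling, where 30 changed sign. After 6 h of 955 these were SLC12A4 (−0.0089), SLC16A14 (−0.16), SLC25A29 (−0.48), SLC25A36 (−0.71), SLC26A6 (−0.37), SLC27A1 (−0.63), SLC29A4 (−0.60), SLC37A2 (−0.36), SLC44A2 (−0.52), SLC4A2 (−0.82), SLC75A1 (−0.47) and SLC7A11 (−0.34). After SNS-032 they were SLC12A4 (−0.18), SLC16A14 (−0.52), SLC25A28 (−1.24), SLC25A29 (−0.73), SLC25A36 (−0.99), SLC25A39 (−1.33), SLC26A6 (−0.39), SLC27A1 (−0.82), SLC29A4 (−0.88), SLC37A2 (−0.77), SLC37A4 (−1.11), SLC44A2 (−0.87), SLC4A2 (−1.01), SLC75A1 (−0.64) and SLC7A11 (−0.86). Between the times of 955 they were SLC25A25 (−0.79), SLC38A2 (−0.55) and SLC9A3 (−0.38).

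No paired analysis was possible because the table holds comparisons of groups and not values per sample. For the same reason leaving out each replicate was not run. Without SLC2A4RG and SLC4A1AP, an alternative chosen after seeing the data, 89 genes remain and no count moved by over 1.5 times. Depth per sample is unknown, so it could not be set against the low-level genes.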
